A study of Caenorhabditis elegans with 51 samples.

Results

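RNA from whole Caenorhabditis elegans carrying a catalytically dead copy of XRN2 was compared with wild-type RNA of a matching developmental stage, so that differences of stage weigh less in what is left. The rule took 11 of the 51 samples of the series, 35 of which are RNA libraries. Of 44200 annotated genes, 17456 had enough reads to be compared, and 2784 of these (15.9%) were kept.

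The mutant strain, HW2216, carries a GFP-tagged copy with changed catalytic residues, xrn-2(D234/236A)::gfp, in animals that are also xrn-2(xe31), a temperature-sensitive allele. The labels give neither the promoter nor the insertion of the tagged copy, and 1 strain stands for the genotype. Wild type was N2. All of these L4 animals were grown for 59 h at 15 °C and moved to 26 °C, and hours are counted from that move. The mutant was harvested at 6 h and 10 h, with a wild-type library of its own experiment at each of these hours. The wild-type time course, sequenced as a separate experiment, has a library at each hour from 0 to 10 h. There was 1 library per strain and hour, so no comparison with the mutant has replicates, and none of the differences between the mutant and wild type below was tested.

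XRN2 is a nuclear exonuclease that digests RNA from its 5′ end. It degrades the RNA that RNA polymerase II goes on making after the 3′ end of a transcript has been cut, and by this helps the polymerase to stop, and it also trims or destroys other nuclear RNAs. In C. elegans it is essential, and animals that lack its activity arrest or slow their development. A mutant that develops late differs from wild type of the same hour in all genes whose level follows the larval clock, molting and germline genes above all, which is why the mutant was set against earlier wild-type hours.

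The values are read counts, given here as CPM (reads per library total, with the total scaled by TMM, a trimmed mean of log ratios over genes). The 6 h mutant was set against wild type at 0, 1 and 2 h, and the 10 h mutant against wild type at 2, 3 and 4 h. A gene passed when its log2 CPM differed from the mean of these wild-type hours by at least 1 (2-fold), in the same direction at both hours, and lay outside the range of the 3 wild-type hours each time. It was then removed as a batch gene when wild type of the mutant's own experiment differed 2-fold or more from time-course wild type at 6 h or at 10 h. Genes left are called kept rises and kept falls. They were chosen by these measured log2 CPM, so their values in the same 11 libraries are a description with no test. Total gene counts were 49628394 and 56318203 in the mutant libraries, 50775586 and 74356542 in their own wild type and 42067660 to 47003276 in wild type at 0 to 4 h.

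The time-course hours nearest to the mutant were those the rule used, or up to 1 h later. Across the 17456 genes, Spearman's rho for the 6 h mutant was highest at wild type 2 h (0.936), and the root mean square difference in log2 CPM was lowest at 3 h (1.51, against 1.52 at 2 h). For the 10 h mutant rho was 0.901 at both 3 h and 4 h, and the difference was lowest at 4 h (1.72). Neighbouring hours of the wild-type course differed by 0.404 to 0.723 with a median of 0.659 over 10 pairs. Genes that entered the comparison only through high mutant counts are part of these distances. Over the 13061 genes with enough reads in wild type alone the 6 h mutant lay 1.00 from its nearest hour, 2 h, and the 10 h mutant 1.19 from 4 h, against 0.288 to 0.578 between neighbouring wild-type hours. Wild type of the mutant's experiment was nearest to the time course at 7 h for its 6 h library (0.431) and at 10 h for its 10 h library (0.594). These are correlations across genes within libraries, and genes are not independent replicates.

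**Figure D1:**
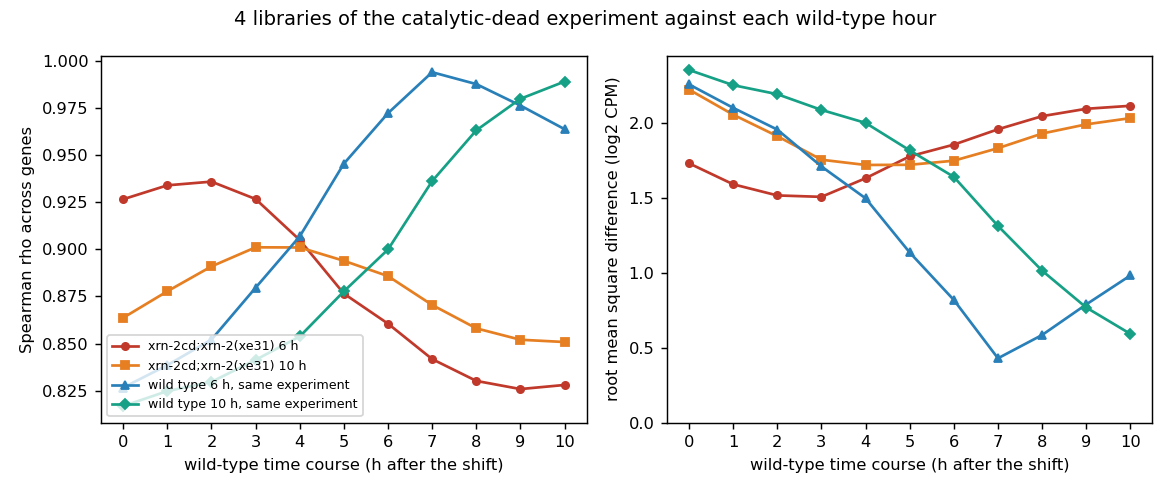
Spearman's rho across genes (left) and root mean square difference in log2 CPM (right) between each of 4 libraries of the catalytic-dead experiment and each wild-type hour of the time course. The 6 h mutant peaks at 2 h (rho 0.936) and the 10 h mutant at 3 to 4 h (rho 0.901), while their own wild types lie closest to 7 h and 10 h.

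Matching by stage also matches the mutant to wild-type animals that had spent fewer hours at 26 °C, none at all for wild type at 0 h. Stage and hours since the temperature move therefore cannot be told apart in these comparisons. In RNA of whole animals, fewer cells of a type and less RNA per cell cannot be told apart either.

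The kept genes leaned to rises: 2234 genes (12.8% of those compared) were kept rises and 550 (3.15%) were kept falls. Before the batch filter 3206 genes were higher and 873 lower, of which 972 (30.3%) and 323 (37%) were removed. The batch filter marked 3446 of all 17456 genes (19.7%), 2533 of them at 6 h, where the own wild type was nearest to a later time-course hour, and 1508 at 10 h. Over 4-fold at both hours were 1128 kept rises and 85 kept falls, and over 16-fold 268 and 5. Kept rises came mostly from genes of low level, with a median mean log2 CPM of -0.57, against 5.196 for kept falls and 3.07 for all genes compared.

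A gene that is silent in wild type could enter the comparison only by being high in the mutant. The shares below are therefore also given for the 13061 genes with enough reads in the 9 wild-type libraries alone. Among these, 946 (7.24%) were kept rises and 507 (3.88%) kept falls, and the median change of all of them was 0.016 at 6 h and 0.0080 at 10 h on the log2 scale. The other 1288 kept rises did not reach this level in wild type. Of all kept rises, 1630 (73.0%) were higher in both mutant libraries than in each of the 13 wild-type libraries of both experiments (9.34% of all genes compared), and 290 kept falls (52.7%) were lower than in each (1.66%). The balance depends on the scaling: with library totals in place of TMM, 3493 genes were kept rises and 197 kept falls, the share of rises moved from 80.2% to 94.7%, and the median of all genes compared moved from 0.21 to 0.62 at 6 h and from 0.19 to 0.70 at 10 h.

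**Figure D2:**
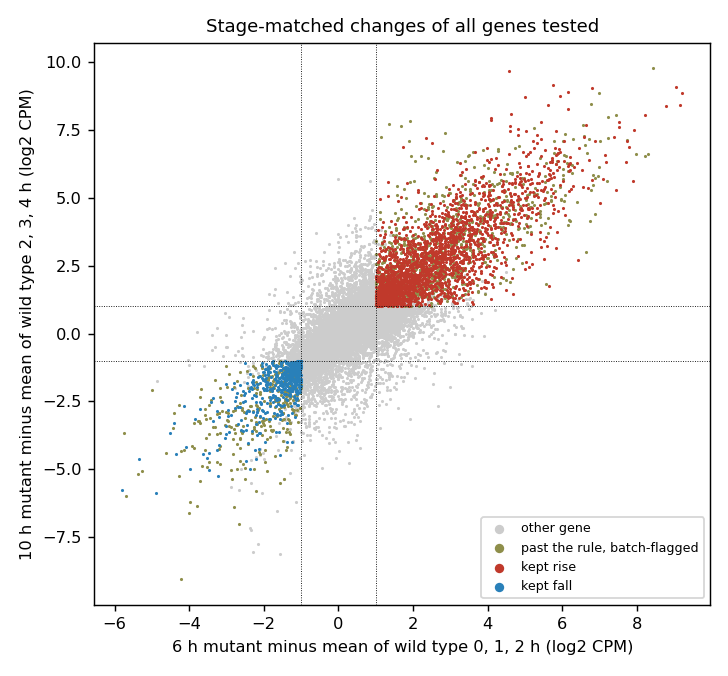
Stage-matched change of each of the 17456 genes compared, at 6 h on the x axis and at 10 h on the y axis, in log2 CPM, with dotted lines at the 2-fold threshold. The upper right holds 2234 kept rises and the lower left 550 kept falls, and genes removed by the batch filter are drawn in olive. With library totals as the scaling the counts were 3493 and 197.

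The same-hour comparison and the stage-matched one shared part of their genes. Against wild type of its own experiment at the same hour, the mutant had 3632 genes at least 2-fold higher and 1559 at least 2-fold lower at both hours. Of the former 1442 were kept rises and 261 differed by under 1.5-fold at both hours once matched; of the latter 124 were kept falls and 329 differed by under 1.5-fold. With the batch filter applied there too, the same-hour comparison had 2317 rises and 1182 falls, which hold the same 1442 and 124 kept genes. The yolk protein gene vit-2 shows the pattern: it was at 9.68 and 19.5 CPM in the mutant at 6 h and 10 h, at 5703 and 13691 CPM in its own wild type, and at 6.52, 11.07, 9.58, 11.08 and 59.8 CPM in wild type from 0 to 4 h. The mutant thus lay far below same-hour wild type and within the range of the early hours. The same held for rme-2, the yolk receptor of oocytes (17.8 and 23.1 CPM against 15.0 to 51.0 CPM at 0 to 4 h), and for ssq-2, puf-11 and gyg-2. In the other direction dao-2, at 844 and 663 CPM in the mutant and 6.62 and 1.71 CPM in its own wild type, lay within the 187 to 1277 CPM of wild type at 0 to 4 h, and T20F5.4, cnc-3, bus-2 and F44E2.4 also differed by under 1.5-fold from the matched hours at both times. Of the genes named in this paragraph, vit-2, puf-11, dao-2, T20F5.4, cnc-3 and F44E2.4 were batch genes by the filter above. Conversely 105 kept rises were at least 2-fold lower, and 26 kept falls at least 2-fold higher, than wild type of the same hour.

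The targeted gene itself was a kept rise. xrn-2 was at 459 and 387 CPM in the mutant, at 192, 131, 109.9, 113 and 123 CPM in wild type from 0 to 4 h, and at 96.4 and 111 CPM in the own wild type. Both mutant values were above each of the 13 wild-type values, by 1.71 and 1.75 on the log2 scale against the matched hours. Counts of the tagged copy and of the endogenous gene are not separated. Of 38 genes for RNA 3′ end formation and nuclear decay, 37 had enough reads in wild type alone, and 3 of these were kept rises (8.11%, against 7.24% of all such genes) and none a kept fall. exos-4.2, a subunit of the exosome that degrades RNA from its 3′ end, was at 90.7 and 142 CPM in the mutant, at 32.9, 32.0, 31.7, 30.5 and 33.5 CPM in wild type from 0 to 4 h, and at 32.0 and 44.1 CPM in the own wild type. The groups did not overlap. eol-1, a relative of the decapping exonuclease DXO, was at 3.54 and 4.36 CPM against 0.490 to 2.73 CPM at 0 to 4 h.

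The largest kept rises came from several roles. zig-4, which encodes a secreted immunoglobulin-domain protein, was at 577 and 346 CPM in the mutant and at 5.99, 5.52, 4.90, 4.24 and 3.22 CPM in wild type from 0 to 4 h, a difference of 6.71 and 6.401 on the log2 scale. No wild-type library exceeded 5.99 CPM. The long noncoding RNA tts-1, known from dauer larvae and long-lived insulin receptor mutants, was at 587 and 955 CPM in the mutant against 13.8 to 23.8 CPM at 0 to 4 h and 5.94 and 16.8 CPM in its own wild type. gst-24, a glutathione S-transferase of the oxidative stress response, was at 194 and 113 CPM, against wild type at 39.4, 18.3, 8.06, 4.34 and 3.81 CPM from 0 to 4 h. Both mutant values were above every wild-type value of these 3 genes.

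nrps-1, the peptide synthetase that makes nemamides, was at 53.6 and 66.3 CPM against 1.45 to 3.14 CPM at 0 to 4 h. rev-3, the catalytic subunit of the translesion DNA polymerase zeta, was at 47.8 and 49.7 CPM against 3.23 to 6.68 CPM, and phlp-2, a phosducin-like gene, at 17.1 and 47.4 CPM against 1.10 to 3.31 CPM. Again no wild-type library of these genes reached the mutant. The rest of the 12 largest kept rises whose mean log2 CPM reached 2 were W07A12.4, icmt-1, fbxc-23, dod-3, sip-1 and Y49A3A.4. For fbxc-23 and Y49A3A.4 the window before the gene also held many counts in the mutant: 979 and 898 beside 1830 and 1656 gene counts, and 1917 and 1392 beside 3818 and 2712.

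sip-1, a small heat shock protein gene, passed the rule but was close to same-hour wild type at 6 h and below its own wild type at 10 h. It was at 392.5 and 690.4 CPM in the mutant and at 5.73, 7.54, 18.5, 68.7 and 185 CPM in wild type from 0 to 4 h, and then at 299.9 CPM at 5 h and 729.9 CPM at 10 h, with 391 and 1085 CPM in the own wild type. The mutant thus lay above the matched hours, near its own wild type at 6 h, and at 10 h nearer to the time course than to its own wild type. perm-4 and perm-2, eggshell genes of oocytes, lay between both: perm-4 was at 27.4 and 73.9 CPM in the mutant, above the 0.716 to 4.58 CPM of wild type at 0 to 2 h and far below its own wild type at 269 and 869 CPM. icmt-1, an isoprenylcysteine methyltransferase gene, was at 46.3 and 99.2 CPM against 0.358 to 14.9 CPM at 0 to 4 h, and was also above its own wild type at 29.1 and 7.53 CPM.

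**Figure D3:**
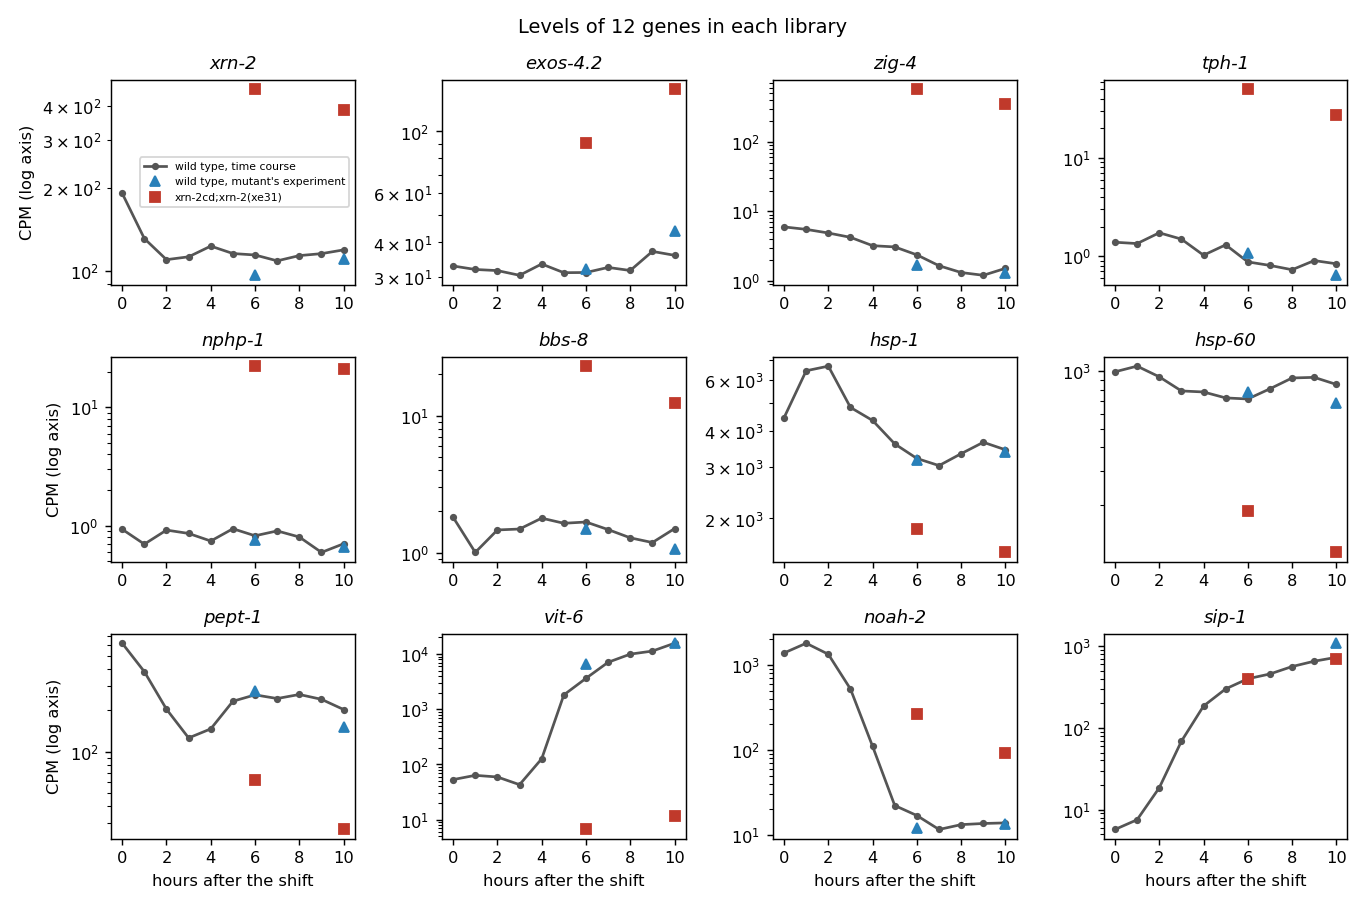
CPM on a log axis of 12 genes in the wild-type time course (grey line, 0 to 10 h), wild type of the mutant's experiment (blue triangles, 6 and 10 h) and the catalytic-dead mutant (red squares, 6 and 10 h), 1 library per point. Mutant values of zig-4, tph-1, nphp-1 and exos-4.2 lie above all wild-type points and those of hsp-1, hsp-60 and pept-1 below all, while noah-2 lies below the early hours and above the late ones, and sip-1 lies near wild type of 6 h and, at 10 h, of the time course.

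Of the lists by function with at least 10 genes with enough reads in wild type, ciliary genes had the highest share of kept rises. Cilia in C. elegans sit on the endings of sensory neurons and are built by kinesin motors, intraflagellar transport and transition zone proteins. Of 66 genes 64 were compared and 18 were kept rises, each above all 13 wild-type libraries, with 3 more removed as batch genes and no kept fall. Of the 56 with enough reads in wild type alone 15 (26.8%) were kept rises, against 7.24% of all such genes, and their median change was 0.57 and 0.70 at 6 h and 10 h, so the list as a whole was shifted less than the kept members. Moving the matched wild-type hours 1 h later gave 17 kept rises and 1 kept fall, and library totals gave 27.

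By role, the largest differences were in the transition zone at the ciliary base. nphp-1, the nephrocystin gene, was at 22.3 and 20.9 CPM in the mutant, at 0.931, 0.697, 0.916, 0.858 and 0.741 CPM in wild type from 0 to 4 h and at 0.752 and 0.658 CPM in its own wild type. mks-6 was at 10.4 and 9.31 CPM against 0.361 to 1.01 CPM at 0 to 4 h, and mks-1 at 10.4 and 9.58 CPM against 0.969 to 1.72 CPM. mks-5, mksr-2 and tmem-138 were kept too. In the BBSome, the coat complex of ciliary membrane traffic, bbs-8 was at 22.9 and 12.32 CPM against 1.01 to 1.81 CPM, bbs-4 at 5.70 and 6.35 CPM against 0.393 to 0.859 CPM, and bbs-5 and bbs-9 were also kept. Of the motors, kap-1, the accessory subunit of kinesin-II, was at 21.01 and 16.38 CPM against 3.17 to 5.42 CPM, and osm-3, the homodimeric kinesin of the distal segment, at 11.96 and 15.3 CPM against 4.30 to 6.97 CPM. Of the intraflagellar transport genes osm-1, osm-6, daf-10, dyf-1 and dyf-13 were kept, with differences of 1.11 to 2.50 on the log2 scale. Mutant and wild-type values did not overlap for any of these genes.

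Other neuronal genes were mixed. Of 59 neuron genes, all with enough reads in wild type, 4 were kept rises (6.78%) and 1 a kept fall (1.69%), shares near those of all such genes (7.24% and 3.88%). tph-1, the tryptophan hydroxylase of serotonin synthesis, was at 50.4 and 27.3 CPM in the mutant, at 1.38, 1.34, 1.73, 1.49 and 1.02 CPM in wild type from 0 to 4 h and at 1.08 and 0.637 CPM in the own wild type. The downstream window of tph-1 also held many counts in the mutant, 3073 and 2432 beside 3316 and 1752 gene counts. cat-2, the tyrosine hydroxylase of dopamine synthesis, was at 5.97 and 6.68 CPM against 2.15 to 2.76 CPM. cdk-5, a kinase with roles in neurons, was lower, at 7.14 and 10.7 CPM against 26.2 to 30.9 CPM at 0 to 4 h and 43.3 and 63.9 CPM in the own wild type.

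Of 81 neuropeptide-like genes with enough reads in wild type, 8 were kept rises (9.88%) and 5 kept falls (6.17%). All genes with enough reads in wild type had shares of 7.24% and 3.88%. nlp-78 was at 61.0 and 103 CPM in the mutant and between 0.812 and 1.35 CPM at 0 to 4 h. nlp-51 was at 46.4 and 100.1 CPM against 5.52 to 7.61 CPM. nlp-24 was a kept fall at 15.6 and 7.82 CPM, with wild type at 249, 172, 107, 42.1 and 20.4 CPM from 0 to 4 h, and lay below each wild-type value. For nlp-78 the window before the gene held 520 and 613 counts beside 4015 and 6606 gene counts.

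Chemoreceptors, the receptors of sensory neurons for odours and other cues, were represented mainly by genes without enough reads in wild type. Of 366 chemoreceptor genes compared, 166 were kept rises, but 34 of the 366 had enough reads in wild type alone. Of these 34, 5 (14.7%) were kept rises, against 7.24% of all such genes. srw-73 was at 11.4 and 17.2 CPM in the mutant and at 0 to 0.0766 CPM at 0 to 4 h, and the window before it held more counts than the gene itself, 1310 and 2204 against 751 and 1105. Of 150 F-box and MATH genes with enough reads in wild type 26 (17.3%) were kept rises and 2 (1.33%) kept falls. The shares of all such genes were 7.24% and 3.88%. Among all 282 F-box and MATH genes compared 63 were kept rises. fbxa-163, without enough reads in wild type alone, was at 34.1 and 58.5 CPM in the mutant against 0 to 0.153 CPM at 0 to 4 h. Of 44 transthyretin-related genes with enough reads in wild type, 10 (22.7%) were kept rises and none a kept fall, against the same 7.24% and 3.88%. ttr-20 was at 30.2 and 44.5 CPM against 4.95 to 6.45 CPM at 0 to 4 h, and ttr-5 at 42.2 and 40.3 CPM against 11.6 to 16.109 CPM, both without overlap.

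Of 162 detoxification genes with enough reads in wild type 18 (11.11%) were kept rises and 14 (8.64%) kept falls, and of 148 immune effectors 16 (10.8%) and 11 (7.43%). The shares of all such genes were 7.24% and 3.88%. dod-3, a gene named for its regulation by the insulin pathway, was at 98.3 and 62.9 CPM against 0.597 to 5.44 CPM at 0 to 4 h. Of 185 nuclear hormone receptors 8 (4.32%) and of 62 homeobox genes 4 (6.45%) were kept rises, below the share of all such genes. In these families nhr-2, without enough reads in wild type alone, was at 23.4 and 19.5 CPM against 0.167 to 0.587 CPM at 0 to 4 h. Its own wild type was at 0.815 CPM at 6 h and 9.48 CPM at 10 h. ceh-99 was at 34.1 and 31.6 CPM against 1.497 to 3.68 CPM at 0 to 4 h.

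Among the same lists, those of chaperones had the highest shares of kept falls. Of 18 chaperones of the endoplasmic reticulum and mitochondria and related stress genes 8 (44.4%) were kept falls, and of 15 cytosolic heat shock genes with enough reads in wild type 5 (33.3%), against 3.88% of all such genes. The median changes were -1.04 and -1.37 for the former and -1.21 and -1.28 for the latter at 6 h and 10 h. Against the own wild type of the same hour, the medians of the 18 organelle chaperones were 0.06 and -0.17. Those of the 16 heat shock genes compared were -0.05 and -0.85. None of these 16 was a kept rise, but 2 passed the fold rule as rises and were removed as batch genes. hsp-1, the constitutive cytosolic Hsp70, was at 1837 and 1529 CPM in the mutant, at 4442, 6444, 6684, 4819.9 and 4346 CPM in wild type from 0 to 4 h and at 3181 and 3395 CPM in its own wild type. hsp-60, the mitochondrial chaperonin, was at 188 and 114 CPM against 991, 1060.2, 933, 788 and 778 CPM, and 775 and 685 CPM in its own wild type. Neither gene's groups overlapped, in any of the 13 wild-type libraries.

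hsp-90, hsp-110, dnj-12 and dnj-13 of the cytosol, the mitochondrial Hsp70 hsp-6 and the choline kinase ckb-2 were likewise below each wild-type library. The kept genes of the endoplasmic reticulum, namely the BiP genes hsp-3 and hsp-4, pdi-2, crt-1 and dnj-7, were below the matched hours, but not every mutant value of them was below all 13 wild-type libraries. hsp-4 was at 349.7 and 522 CPM in the mutant, at 358, 1824, 3562, 2231 and 1381 CPM in wild type from 0 to 4 h and at 975 and 513 CPM in its own wild type, so that its 6 h value was below all 13 and its 10 h value was not. In wild type the summed level of the heat shock list differed by hour after the temperature move: it was 9689 CPM at 0 h, 18522 CPM at 2 h and 7498 CPM at 7 h, against 5457 and 4880 CPM in the mutant, below all 13. With library totals the medians of both lists stayed below 0, at -0.78 and -0.74 for heat shock genes and -0.62 and -0.84 for organelle chaperones, and each list had 1 kept fall.

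Intestinal genes were lower in part. Of 41 with enough reads in wild type 10 (24.4%) were kept falls, against 3.88% of all such genes, and none a kept rise. The median change of the 41 was -0.38 and -0.66. Among all 44 compared, 4 passed the fold rule as rises but were removed as batch genes. Over the 44 compared, the median against the own wild type of the same hour was 0.18 and 0.05. pept-1, the intestinal oligopeptide transporter, was at 62.04 and 27.01 CPM in the mutant, at 619.8, 384, 204, 126 and 147 CPM in wild type from 0 to 4 h and at 276 and 152 CPM in its own wild type. act-5, the actin of intestinal microvilli, was at 619.5 and 153 CPM against 937 to 2174 CPM, and the aspartic protease gene asp-12 at 23.2 and 16.6 CPM against 131 to 164 CPM. These 3 and the acid phosphatase pho-1 were below each wild-type library, while cpr-4, cpr-5, asp-1, asp-8, asp-17 and fat-6 were not. Summed over the whole list, the mutant had 14382 and 10104 CPM against 19205 to 26533 CPM in wild type at 0 to 4 h. The own wild type had 14796 CPM at 6 h and 10472 CPM at 10 h. With library totals the list had 6 kept falls and its median was 0.06 at 6 h, above 0, and -0.12 at 10 h.

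Of 7 yolk genes compared 4 had enough reads in wild type, and 2 of these, vit-6 and vit-1, were kept falls (50%, against 3.88% of all such genes). None was a kept rise, and 1 passed the fold rule as a rise but was removed as a batch gene. The median change over all 7 was 0.14 and -0.28, so the list as a whole did not fall with these 2. vit-6 was at 6.66 and 11.9 CPM in the mutant, at 53.3, 63.6, 59.4, 43.1 and 127 CPM in wild type from 0 to 4 h, and at 6579.8 and 15677 CPM in the own wild type. Yolk genes are switched on in the intestine of maturing hermaphrodites, and the mutant values of both genes were below each wild-type library. Of 37 muscle genes 6 (16.22%) were kept falls, the actin genes act-1, act-3 and act-4, the myosin light chain mlc-1, the troponin tni-1 and the perlecan gene unc-52. The list's median was -0.78 and -0.95 against the matched hours and -0.07 and -0.25 against the own wild type of the same hour. unc-52 was at 339 and 224 CPM against 678 to 1017 CPM at 0 to 4 h and 375 and 361 CPM in the own wild type, and act-1 and unc-52 alone were below each wild-type library. Near-identical actin genes can share reads, so their counts are uncertain one by one. None of the 37 was kept with library totals, where the median stayed below 0 (-0.35 and -0.42).

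By the medians of their list, molting genes were below the matched hours and above the same hour. Of 34 genes 8 (23.5%) were kept falls, against 3.88% of all genes with enough reads in wild type. Another 8 passed the fold rule but were removed as batch genes. The list's medians were -1.12 and -1.71 against the matched hours and 1.54 and 1.31 against the own wild type of the same hour. noah-2, an apical matrix protein gene, was at 264 and 93.4 CPM in the mutant, at 1385, 1804, 1338, 522 and 110.3 CPM in wild type from 0 to 4 h and at 12 and 13.3 CPM in the own wild type. nas-37, the astacin protease of ecdysis, was at 44.9 and 16.21 CPM against 137, 326, 406, 242 and 73.8 CPM, with its own wild type at 13.7 and 36.4 CPM. At 10 h 5 of the 8 kept molting genes were below their own wild type, nas-37, mlt-3, dpy-31, mlt-2 and nekl-3, by 0.097 to 1.17 on the log2 scale. Wild type passed a peak of noah-2 and nas-37 within the matched hours, and the mutant lay below that peak. No molting gene was below every wild-type library, and with the matched hours moved 1 h later the list had 4 kept falls.

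Germline lists had few kept genes, and more with library totals as the scaling. Over the 71 sperm genes compared, the median was -3.69 and -2.03 against the own wild type of the same hour. Against the matched hours it was 1.01 and 0.52. Of the 28 sperm genes with enough reads in wild type 1 was a kept rise (3.57%, against 7.24% of all such genes). Oocyte and eggshell genes had medians of -2.69 and -4.21 against the own wild type and 0.37 and 0.31 against the matched hours (28 genes, 3 kept rises or 10.7%). Over all members compared, library totals gave 17 kept sperm genes in place of 4, 6 oocyte and eggshell genes in place of 3 and 6 germline genes in place of 2, all as rises. Of 34 germline genes ego-1 and rrf-1, both RNA-dependent RNA polymerases of small RNA pathways, were kept rises (5.88%). ego-1 was at 131 and 154 CPM against 58.4 to 89.1 CPM at 0 to 4 h, and rrf-1 at 100.3 and 99.1 CPM against 38.2 to 52.5 CPM. Of 32 replication and cell cycle genes cdk-4 alone was kept, at 15.1 and 20.9 CPM against 3.70 to 6.04 CPM. Of 79 ribosomal protein genes with enough reads in wild type rpl-7A alone was kept, as a fall. That list's median was -0.31 and -0.42, and with library totals it turned to 0.11 and 0.12.

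**Figure D4:**
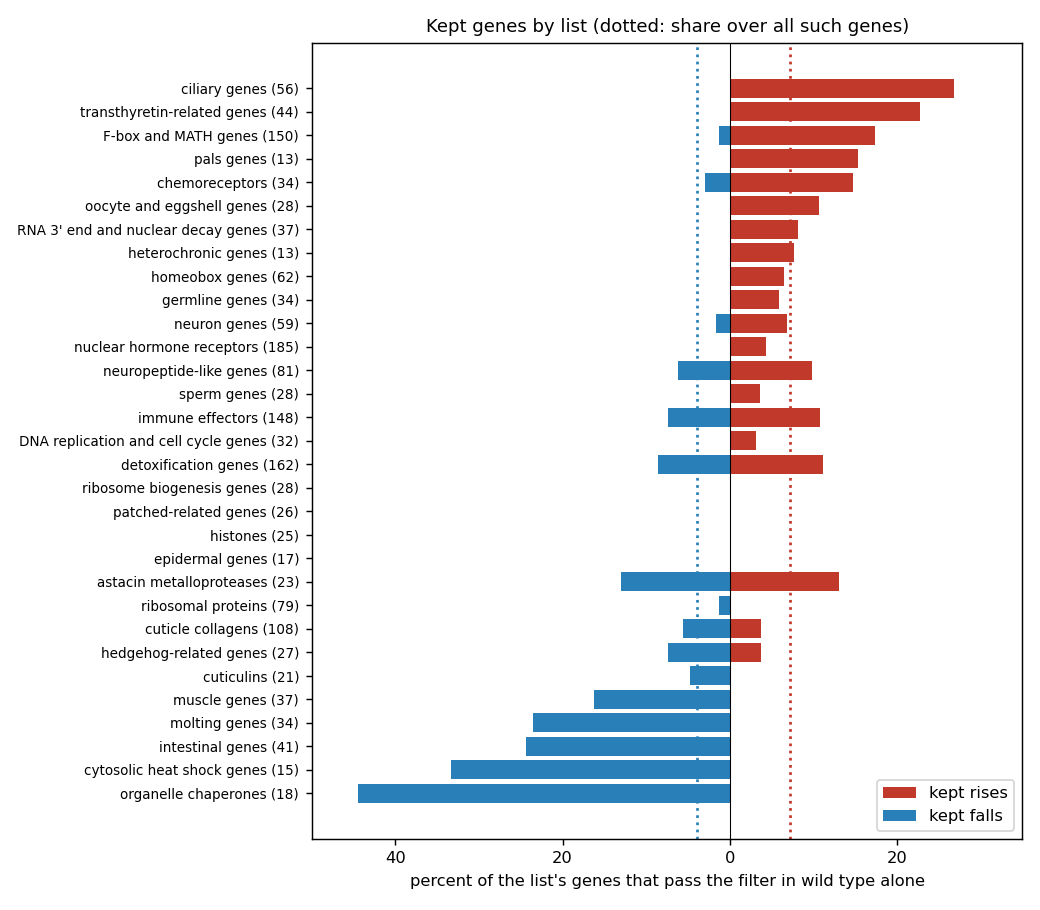
Share of each list's genes kept as rises (red, to the right) and as falls (blue, to the left), among genes with enough reads in wild type alone, whose number stands in brackets. Dotted lines mark the shares over all such genes, 7.24% and 3.88%; ciliary genes reach 26.8% rises and organelle chaperones 44.4% falls. With library totals as the scaling, heat shock genes and organelle chaperones each had 1 kept fall, muscle genes none, and the medians of the intestinal list at 6 h and of the ribosomal protein list at both hours turned above 0.

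Among the 12 largest kept falls whose mean log2 CPM reached 2, F23D12.11 was at 1.61 and 1.65 CPM in the mutant, at 14.1, 26.7, 46.4, 60.5 and 53.7 CPM in wild type from 0 to 4 h and up to 129 CPM in the own wild type, below each wild-type library. best-21, a bestrophin channel gene, was at 0.578 and 0.561 CPM against 6.36 to 24.0 CPM at 0 to 4 h, and T20G5.8 at 3.01 and 3.41 CPM against 27.1 to 30.4 CPM, both also below all 13. rips-1 had the largest difference, with 1.40 and 0.389 CPM against 41.96, 42.6, 43.3, 24.7 and 14.3 CPM. gly-1, a glycosyltransferase gene, was at 0.319 and 0.747 CPM against 1.58 to 24.0 CPM, but its own wild type was at 0.715 and 0.699 CPM, so it differed little at 10 h. R06C1.4 likewise overlapped later wild type. The others were F22E5.1, abhd-3.2, C45E5.1, ugt-12, C12D5.9 and F08F3.4.

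At the edge of the rule, just inside the threshold were srm-4 (smaller difference 1.00 on the log2 scale), fbxa-69, prmn-1 and nucb-1, and just outside were ZK1010.10, let-23, hut-1 and bli-3. let-23, the EGF receptor, was at 45.0 and 97.0 CPM against 19.6 to 26.1 CPM at 0 to 4 h, and bli-3, the dual oxidase of cuticle crosslinking, at 16.8 and 11.3 CPM against 31.3 to 38.7 CPM. The genes past the fold rule with the largest batch difference, and so not kept, were pud-3, col-71, pud-4, C27D9.2 and fbxa-44. The collagen col-71 was at 1660.2 CPM in time-course wild type at 6 h and at 70.5 CPM in the other wild type at 6 h. Time-course wild type was itself at 259.7 CPM at 7 h and 74.4 CPM at 8 h. A difference of batch and a small difference of stage therefore cannot be told apart for col-71.

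Counts in windows beside genes were higher in the mutant libraries. Downstream windows held 2.71 and 3.79 counts per 100 gene counts in the mutant, 0.822 to 1.10 in wild type at 0 to 4 h and 1.16 and 1.03 in the own wild type. Upstream windows held 1.14 and 1.59 per 100 gene counts against 0.395 to 0.448. Over all 10485 genes measured, the downstream count per gene was 2-fold higher at both hours in 66.4%, in 82.2% of kept rises and in 62.9% of kept falls. The upstream window is read here as lying before the gene start, although the labels and headers do not place it. It was 2-fold higher in 83.5% of kept rises, 41.6% of kept falls and 62.4% of all 7072 measured. These windows come from the same libraries as the rule. In 183 of 1144 kept rises without enough reads in wild type (15.997%) the upstream window held at least as many counts as the gene in both mutant libraries, against 13 of 905 kept rises with enough reads (1.44%), 2 of 500 kept falls and 3.00% of all genes with a window. Whether reads of a gene next door add to a gene's count was not tested.

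The kept genes were then looked up in libraries that the rule did not use. The xrn-2(xe31) strain, with the temperature-sensitive allele and no tagged copy, and wild type were compared at 5, 7, 8 and 9 h of the time course with the quasi-likelihood test of edgeR, hour as a block and Benjamini-Hochberg adjustment over all genes tested. Of 16078 genes 941 (5.85%) were higher and 719 (4.47%) lower in xe31. Among genes with enough reads in wild type 4.13% were higher, and of the 946 kept rises among them 219 (23.2%) were higher and 10 lower. Among genes with enough reads in wild type 5.31% were lower, and of the 506 kept falls among them 59 (11.7%) were lower and 3 higher. The median log2 change was 0.21 for those 946 kept rises, -0.12 for kept falls and -0.03 for all genes of the rule.

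**Figure D5:**
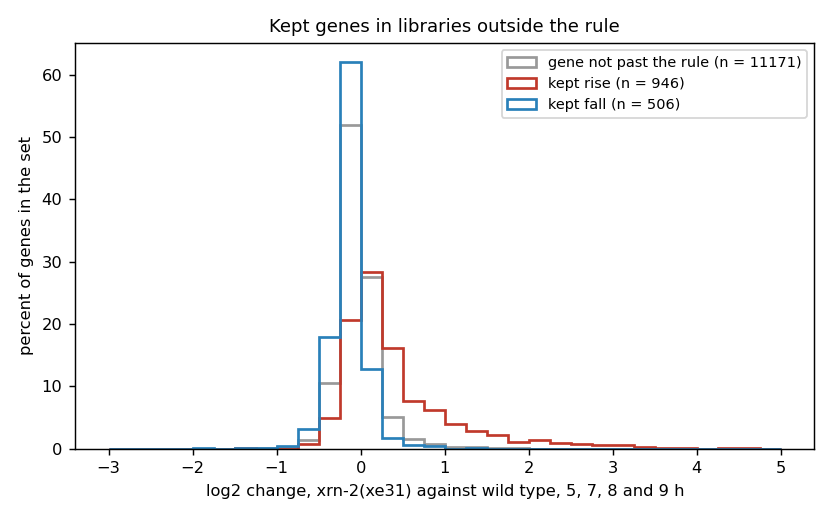
Histogram of the log2 change between xrn-2(xe31) and wild type at 5, 7, 8 and 9 h, as percent of each set, for genes with enough reads in wild type alone. Kept rises (red) extend further to the right than genes not past the rule (grey), with a median of 0.21, and kept falls (blue) lie slightly to the left.

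The number of calls in xe31 rests on which hours enter, and why was not tested. The 4 pairs leave 3 residual degrees of freedom. Leaving out the 8 h pair gave 18 of the kept rises with enough reads in wild type and 71 genes in all as higher, leaving out 7 h gave 26 and 96, leaving out 9 h gave 59 and 229, and leaving out 5 h gave 351 and 2313. For kept falls the calls were 0, 0, 4 and 113 in the same order. The share of kept rises called was above that of all genes tested in each case, and the medians of kept rises stayed between 0.19 and 0.28.

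Of ciliary genes 10 of 62 tested rose and 2 fell, at a list median of 0.08. Of all genes tested 5.85% were higher and 4.47% lower. nphp-1 rose by 4.39 ± 0.30 (SE) on the log2 scale in 4 of 4 hours (edgeR, adjusted p = 0.00296), mks-6 by 2.83 ± 0.23 (edgeR, adjusted p = 0.00411) and osm-3 by 1.28 ± 0.10 (edgeR, adjusted p = 0.00378). bbs-8 differed by 1.01 ± 0.30 and did not pass (edgeR, adjusted p = 0.0853), and osm-1 differed by -0.01. tph-1 rose by 1.77 ± 0.18 (edgeR, adjusted p = 0.00802) and cdk-5 fell by 1.85 ± 0.30 (edgeR, adjusted p = 0.0229), each in 4 of 4 hours.

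xrn-2 itself rose by 1.00 ± 0.07 (edgeR, adjusted p = 0.00324). Of the 12 largest kept rises, nrps-1, icmt-1, fbxc-23, rev-3, phlp-2, Y49A3A.4 and gst-24 rose, with phlp-2 the furthest at 4.55 ± 0.13 (edgeR, adjusted p = 0.000638) and nrps-1 next at 3.05 ± 0.15 (edgeR, adjusted p = 0.00120). zig-4 at 0.43 ± 0.20, tts-1 at 0.15 ± 0.12 and exos-4.2 at 0.01 ± 0.06 did not pass. The difference between the strains was not tested for these genes, and hours and experiment differ too. Of the largest kept falls T20G5.8 fell by 1.32 ± 0.14 (edgeR, adjusted p = 0.00796), while hsp-1 (0.02 ± 0.05) and hsp-60 (-0.05 ± 0.05) did not pass. Of the chaperone lists 1 of 15 heat shock genes (dnj-12) and 1 of 18 organelle chaperones (ckb-2) were called, both as lower, and no muscle gene of 37 was called. With 4.47% of all genes tested called lower, counts this small in short lists do not set these lists apart.

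A few kept genes went the other way in xe31. Of 1642 kept rises tested 13 (0.79%) were called lower, against 4.48% of all genes of the rule. Of 529 kept falls tested 3 (0.57%), noah-2, dpy-8 and F57H12.6, were called higher, against 5.81%. noah-2 rose by 0.67 ± 0.09 (edgeR, adjusted p = 0.0157) and dpy-8, a cuticle collagen of furrows, by 0.85 ± 0.14 (edgeR, adjusted p = 0.0241), and both were also higher in the catalytic-dead mutant than in wild type of the same hour. math-44 was the kept rise with enough reads in wild type and the largest opposite change, at -1.47 ± 0.17 (edgeR, adjusted p = 0.0102).

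Windows beside genes were also tested in these xe31 libraries. The downstream count relative to the gene count was higher in xe31 for 2963 of 9174 genes (32.3%), and for 36.4% of the genes with enough reads in wild type. Of the kept rises among these it was higher in 170 of 607 (28.01%) and of the kept falls among these in 87 of 277 (31.4%), both below the share of all such genes. With the upstream count as the reference in place of the gene count, 25 of 154 such kept rises and 343 of 1693 genes were higher. The upstream window alone was higher in 39.8% of 6067 genes, in 38% of those with enough reads in wild type, in 223 of 443 kept rises among these (50.3%) and in 52 of 202 kept falls (25.7%). Leaving out the 9 h pair gave 144 of 369 such kept rises (39.0%), against 32.5% of all 4978 genes of that fit.

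RNAi against xrn-2 gave 1 more pair of polyA libraries, with feeding at 20 °C from the L1 to the middle of the L4 stage, set against mock RNAi, with 1 library per treatment and no test. Of the 13970 genes with enough counts 25.4% were 2-fold higher and 7.23% 2-fold lower. Among genes with enough reads in wild type these shares were 24.1% and 6.12%. Kept rises of this kind were 2-fold higher in 480 of 850 (56.5%) and 2-fold lower in 59. Kept falls of this kind were 2-fold lower in 68 of 494 (13.8%) and 2-fold higher in 102 (20.6%). zig-4 was higher by 6.77 on the log2 scale, tts-1 by 5.96, tph-1 by 4.11 and nphp-1 by 3.90, and eol-1 by 5.65. hsp-60 was at -1.26 and pept-1 at -1.57. The yolk genes were far lower in this library too, vit-6 at -6.21 and vit-1 at -6.57, and noah-2 was at 6.79. The pair was not matched by stage.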

How the data were processed

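The authors deposited whole-number read counts per gene, and counts in a downstream and an upstream window per gene, per the file headers. Genome build ce10 is named in the submitters' processing notes, and the labels' protocols give TruSeq Standard mRNA libraries. The sources used here do not give the aligner, counting program, strand use or window lengths, and overlapping genes, antisense genes and near-identical copies could share counts. Symbols were found for 42362 gene IDs (95.8%). The members, the gene lists and the rules were chosen with earlier results of these data known.

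Counts of the 11 libraries were filtered with filterByExpr (minimum count 10) and scaled by TMM, and log2 CPM were computed with a prior count of 2, in edgeR 4.0.16 (R 4.3.3). The rule then used a threshold of 2-fold. The comparison of xe31 used the edgeR quasi-likelihood test with hour as a block and a BH-adjusted threshold of 0.05. Window fits took genes with at least 20 window counts, and the downstream fit also asked for a mean of at least 10 gene counts. They were tested on simulated data. Each p-value covers the spread between these libraries alone, since nothing says that they came from separate cultures. Genes named are xrn-2, the 12 largest kept rises and falls by the smaller of both changes whose mean log2 CPM reached 2, up to 2 members per list, 5 same-hour rises and falls lost on matching, those next to the threshold and the 5 with the largest batch difference. Other members were named after their values were seen. DESeq2 1.42.0, limma 3.58.1, other scalings, filters, thresholds and matched hours served as alternatives. Among the polyA RNAi counts, 4 gene columns and 8 window columns were matched to no sample and were not used. The RNAi pair used genes with at least 100 counts and pseudocount 1. The 16 ChIP and input libraries were not analysed here.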

Additional observations from a re-analysis of the deposited data

Results flagged for a closer look

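3 named genes were set apart because both catalytic-dead libraries moved one way against wild type of the same hour while all 4 late xe31 hours moved the other way. In each case the difference between the strains was not tested. prmn-1 differed by 0.12 and 1.22 on the log2 scale in the catalytic-dead strain and by -0.23 ± 0.06 (SE) in xe31, lower in 4 of 4 hours, and did not pass (edgeR, adjusted p = 0.0638). ssq-2, a sperm gene, differed by -5.52 and -3.76 in the catalytic-dead strain and by 0.12 ± 0.04 in xe31 (edgeR, adjusted p = 0.141). ttr-13, a transthyretin-related gene, differed by -2.27 and -0.97 and by 0.17 ± 0.14 in xe31 (edgeR, adjusted p = 0.460). Against the matched hours prmn-1 was a kept fall and ttr-13 a kept rise, at 0.198 and 0.592 CPM in the mutant.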

How the results depend on the processing

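No paired analysis was possible because the groups compared share fewer than 2 replicate numbers in the labels; the xe31 test was instead blocked by hour, and its counts without that block stand below. Against the reported 2234 kept rises and 550 kept falls, library totals gave 3493 and 197, a 4-fold threshold 1128 and 85, and a 1.5-fold batch filter 1335 and 344. Kept falls numbered 1432 at a 1.5-fold threshold, 1182 against same-hour wild type of the own experiment and 1245 against that of the time course. Added after seeing the data, no batch filter gave 873 kept falls, the filter in wild type alone 946 kept rises, and all 13 wild-type libraries as the range 290 kept falls. Median-ratio size factors, another filter or prior count, and leaving out 1 wild-type hour kept both counts within 1.5 times. Matching 1 h later gave 1969 and 447, holding 1825 (81.7%) and 355 (64.5%) of the reported kept rises and falls. Kept falls then numbered 3 in place of 6 for muscle genes and 7 in place of 10 for intestinal genes. They rose from 5 to 7 for heat shock genes and from 8 to 10 for organelle chaperones. Oocyte and eggshell genes had no kept rise in place of 3.

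Against same-hour wild type of the own experiment, the mean change turned sign for sip-1 (-0.32), nas-37 (0.27), noah-2 (3.63), perm-4 (-3.43), perm-2 (-3.79), rpl-7A (0.011), ttr-13 (-1.62), fbxa-69 (-0.99), prmn-1 (0.67) and nucb-1 (0.039). Against that of the time course it did so for sip-1 (-0.052), nas-37 (0.25), noah-2 (3.35), perm-4 (-3.19), perm-2 (-3.70), ttr-13 (-1.75), fbxa-69 (-0.65) and prmn-1 (0.080). Both alternatives drop the stage match by construction.

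In late xe31 (941 genes higher, 719 lower, 219 kept rises, 59 kept falls), DESeq2 gave 1166 lower. Adding 6 h and 10 h gave 2163, 2516, 375 and 163, and no hour block 393, 95, 100 and 9. Leaving out 1 hour gave 71 to 2313, 2 to 1956, 18 to 351 and 0 to 113. Readthrough without 1 hour was called in 1054 to 3780 genes and 56 to 230 kept rises, and with the upstream reference in 343 and 25. The upstream window was called in 1617 to 2669 genes and 144 to 246 kept rises. In the rRNA-depleted RNAi libraries edgeR gave 0 calls, with 1487 higher and 847 lower at unadjusted p under 0.05, and DESeq2 gave 743 and 361. Beyond these causes of construction, the cause was not tested. Genes under about 1 CPM rest on few counts, and the single library per hour limits every value.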

Other observations

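Position on the chromosomes differed between both sets of kept genes. Among genes with enough reads in wild type, kept rises made up 94 of 1832 on chromosome X (5.13%) and 6.53% to 8.08% on the other 5 chromosomes, whereas kept falls made up 116 (6.33%) on X and 2.80% to 4.82% elsewhere. Of 1954 protein-coding kept rises 31.7% lay directly next to another kept rise, against 14.7% of 532 kept falls and 17.7% of 13872 genes not kept. Directly next to a kept fall lay 12.03% of kept falls, 4.04% of kept rises and 5.54% of genes not kept. Unlike the chromosome shares, these neighbour shares were not limited to genes with enough reads in wild type. Of the 1954 kept rises 901 had enough reads in wild type, and of the 532 kept falls 497. These are counts in the libraries that the rule used, with no test.

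Noncoding RNAs with enough reads in wild type were few. Of 22 annotated as ncRNA 4 were kept rises (18.2%), against 7.24% of all genes with enough reads in wild type. The 4 were tts-1, W05H9.3, Y53F4B.45 and F31E9.11, named here after their values were seen. None of 27 piRNA, 9 lncRNA or 5 snoRNA genes was a kept rise, and 1 of 3 antisense RNA genes was. W05H9.3 was at 1985 and 1366 CPM in the mutant, at 186, 243, 261, 188 and 159.8 CPM in wild type from 0 to 4 h and at 148 and 105 CPM in the own wild type, without overlap. In late xe31 it differed by 1.24 ± 0.31 (SE) on the log2 scale, higher in 4 of 4 hours, and did not pass (edgeR, adjusted p = 0.0589). F31E9.11 went the other way and fell by 0.60 ± 0.13 in 4 of 4 hours (edgeR, adjusted p = 0.0416), while tts-1 at 0.15 ± 0.12 and Y53F4B.45 at 0.00014 ± 0.064 did not pass.

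The rRNA-depleted libraries of xrn-2 RNAi were set against their 1 mock library. xrn-2 itself differed by 0.21 and -0.01 on the log2 scale, so its own count gives no sign of the knockdown there. The median change was 1.04 and 0.74 for 992 kept rises, -0.57 and -0.12 for 474 kept falls and 0.35 and 0.25 for all 12901 genes.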
